A study of Mus musculus with 4 samples.

Results

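The 40 genes described here are parts of the cell division machinery, chosen by name out of the 33696 genes counted in leukocytes of mouse pancreatic tumours. They were read in 4 single-cell RNA libraries of live CD45+ cells, with 10 tumours pooled into each library and therefore no replicate of any treatment. The tumours grew under the skin of male C57BL/6 mice from a KPC line, a carcinoma line derived from mice carrying Trp53 LSL.R172H and Pdx1-Cre among their alleles, and were resected on day 14. Untreated tumours were compared with tumours given 2 µg of the STING agonist ADU-S100 once into the tumour, with tumours of mice given 100 µg of the LTβR agonist antibody 4H8 into the peritoneum 4 times until day 10, and with tumours given both (combination therapy). STING is the adaptor through which cytosolic DNA induces type I interferon. LTβR is the receptor for lymphotoxin and drives the formation of lymphoid tissue. Because each treatment is 1 library, no test between treatments was possible, and the intervals below are 95% intervals that cover counting error only.

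A dividing cell first licenses and copies its DNA and then separates the copies. The licensing and firing of replication origins is the work of Mcm2 to Mcm7, the helicase, and of Gins2, Cdc6 and Cdt1, which load or activate it. DNA synthesis and repair are represented by Pcna, the sliding clamp, by Tyms, Tk1, Rrm1 and Rrm2, which make the nucleotides, and by the recombination factor Rad54l. These 15 genes are called replication members below. The 23 mitosis members are Mki67 and Top2a, which coat and untangle mitotic chromosomes, 7 kinases and cyclins (Cdk1, Ccnb1, Ccnb2, Ccna2, Aurka, Aurkb and Plk1), the anaphase-promoting complex activator Cdc20 and its E2 enzyme Ube2c, and 12 genes of the spindle and kinetochore. Diaph3, a formin, and Stmn1, a microtubule destabiliser, were placed in neither set. In tumours this programme is known in expanding effector T cells and NK cells, in a minority of resident macrophages and DC, and in newly formed plasmablasts, whereas mature neutrophils have left the cell cycle.

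The promoters of the mitosis members carried a shared letter pattern. Of the 40 members, 34 had a promoter in the RefSeq tables used (GRCm38.p6; not Ccna2, Aurkb, Tpx2, Mcm4, Gins2 and Stmn1), taken as 250 bases before to 50 bases after the start of the gene. The CHR motif, the site through which the DREAM complex holds mitotic genes silent in resting cells, was searched as TTTGAA or TTCGAA on both strands, and 16 of 20 mitosis promoters held it against 2 of 13 replication promoters. An E2F motif, searched as TTTCGCGC, TTTGGCGC, TTTCCCGC or TTTGCCGC, was in 6 of 13 replication promoters and in 1 of 20 mitosis promoters. The CCAAT box, searched as CCAAT, was in 28 of the 34. Among all 32851 promoters of the same length, 19.2% held the CHR letters, 2.26% the E2F letters and 37.4% the CCAAT letters. These matches are descriptions of letters and not of bound sites. The 160 bases before the start are shown for 5 members described below, with the motif letters in capitals on either strand. Mki67 and Top2a stand for the mitosis members (chr7:135716380-135716539 and chr11:99024190-99024349, both on the minus strand), Mcm5 and Mcm6 for the replication members (chr8:75109349-75109508, plus strand, and chr1:128359706-128359865, minus strand), and Ckap2l for a member that went against the others in macrophages and monocytes (chr2:129297213-129297372, minus strand).
Mki67: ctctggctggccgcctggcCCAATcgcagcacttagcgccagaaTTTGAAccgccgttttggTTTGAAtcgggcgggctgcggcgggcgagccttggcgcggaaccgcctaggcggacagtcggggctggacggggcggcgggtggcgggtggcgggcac
Top2a: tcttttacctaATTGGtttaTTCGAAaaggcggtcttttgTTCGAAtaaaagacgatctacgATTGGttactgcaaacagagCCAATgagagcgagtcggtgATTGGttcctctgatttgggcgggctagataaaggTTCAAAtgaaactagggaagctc
Mcm5: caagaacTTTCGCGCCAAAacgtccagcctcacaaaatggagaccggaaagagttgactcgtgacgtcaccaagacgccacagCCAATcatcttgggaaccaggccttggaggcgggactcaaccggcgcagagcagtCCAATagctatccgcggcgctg
Mcm6: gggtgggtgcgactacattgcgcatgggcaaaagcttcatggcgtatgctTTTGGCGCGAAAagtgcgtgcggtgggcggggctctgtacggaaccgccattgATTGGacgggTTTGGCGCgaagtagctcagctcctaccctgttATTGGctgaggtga
Ckap2l: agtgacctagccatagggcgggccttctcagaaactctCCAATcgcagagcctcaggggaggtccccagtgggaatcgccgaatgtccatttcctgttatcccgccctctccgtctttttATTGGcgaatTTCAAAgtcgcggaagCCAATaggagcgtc

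The libraries differed in size and depth in a way that bears on every share. After filtering, 47999 leukocytes were kept, 7362 from untreated tumours, 13223 after the STING agonist, 13024 after the LTβR agonist and 14390 after combination therapy, with median totals of 4578, 3112, 3670 and 2144 unique molecules (UMIs) a cell outside immunoglobulin genes. Each cell was therefore thinned to 1500 such UMIs, and a cell was called cycling when at least 5 of the 40 members were detected at that depth. Shallower cells were left out, which removed 14.3%, 19.9%, 17.4% and 35.2% of the leukocytes in the same order. The upper limit of 5000 genes a cell removed 5.70% of the untreated cells, 2.19% of those after the STING agonist, 1.30% of those after the LTβR agonist and 0.294% of those after combination therapy, and such cells were often cycling. Cell types were taken from clusters made without cell cycle genes and named by marker genes. The clusters were named by these markers, so their levels describe the classes and do not check them. They stood with Cd3e at 602 CPM (UMIs of the gene per 1000000 UMIs) in T cells against 2.72 in the other leukocytes, Ncr1 at 350 in NK cells against 0.887, and C1qa at 1935 in macrophages and monocytes against 89.6, while the monocyte markers Ly6c2 (180 against 410) and Hp (80.5 against 138) were lower in macrophages and monocytes than in the other leukocytes. In all, 304 barcodes occurred in more than 1 library.

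Neutrophils gave a background for cells that do not divide. No thinned neutrophil reached 5 members in any library, 0 of 327, 3720, 545 and 247 cells, and with 3 counts taken as the limit of a count of 0 this allows shares of up to 0.917%, 0.0806%, 0.550% and 1.21%. Without thinning the shares were 0%, 0.0757%, 0% and 0.078%. Single members were nonetheless detected in neutrophils, Pcna in 5.35% of 4839 thinned cells, Mki67 in 1.24% and Top2a in 0.537%, so 1 detected member did not mark a cycling cell. The highest number of members in a neutrophil was 3, 3, 2 and 4 in the 4 libraries. In T cells, macrophages and monocytes the distribution ran well past the limit of 5. Of untreated cells at this depth, 251 of 327 neutrophils had 0 members, against 476 of 1184 T cells. The rate of false calls in classes other than neutrophils was thus not measured.

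**Figure D1:**
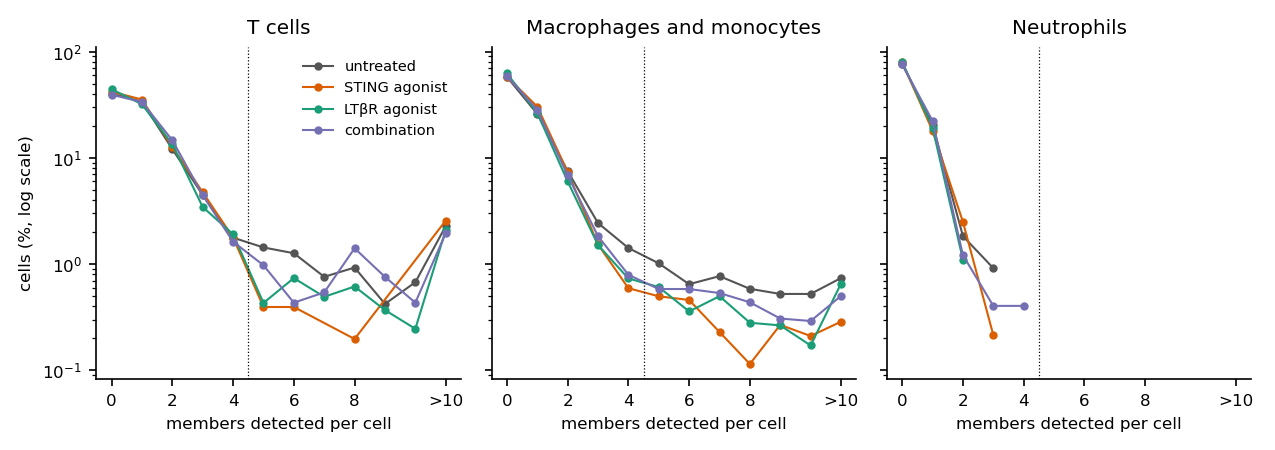
Percent of cells (log axis) by the number of the 40 members detected per cell after thinning to 1500 UMIs, for T cells, macrophages with monocytes, and neutrophils in the 4 libraries, with the dotted line before 5 members, cells above 10 pooled and empty points left out. T cells and macrophages with monocytes reach beyond 10 members, and the highest number in a neutrophil is 4.

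Among all leukocytes the share of cycling cells was highest in untreated tumours. The share was 5.04% in untreated tumours, 1.55% after the STING agonist, 3.21% after the LTβR agonist and 3.86% after combination therapy. Neutrophils, which did not cycle, made up 35.1% of the cells at this depth after the STING agonist against 5.18%, 5.07% and 2.65% in untreated tumours, after the LTβR agonist and after combination therapy. Without thinning it was 14.7%, 5.94%, 7.89% and 5.39%, so the place of combination therapy in the order depended on the depth. Macrophages with monocytes made up 49.1%, 65.9%, 52.8% and 55.6% of the cycling leukocytes, T cells 28.9%, 11%, 23.5% and 16.7%, and DC 11.3%, 5.49%, 7.54% and 13.1%. When every cluster was given the same weight in each library, the shares drew together at 3.77%, 2.88%, 3.42% and 3.29%. The summed level of the 40 members in all leukocytes was 989, 581, 832 and 871 CPM.

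**Figure D2:**
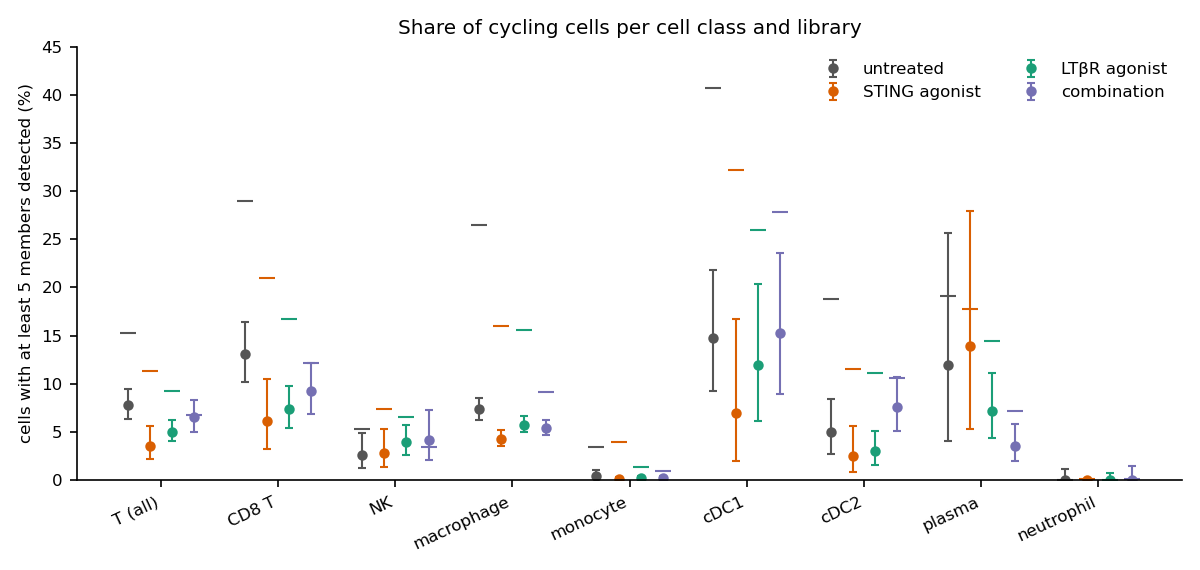
Percent of cycling cells, at least 5 members detected at 1500 UMIs, per cell type and library, where points are the thinned shares with 95% exact binomial intervals and dashes the shares without thinning. Among the thinned points the STING agonist library lies lowest in T cells, macrophages and cDC1 and neutrophils lie at 0, whereas the dashes put combination therapy lowest in T cells and macrophages and the LTβR agonist lowest in cDC1.

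T cells cycled most in untreated tumours and least after the STING agonist. The share of cycling T cells was 7.77% in untreated tumours (92 of 1184, interval 6.31 to 9.45), 3.56% after the STING agonist (18 of 506, 2.12 to 5.56), 4.99% after the LTβR agonist (81 of 1623, 3.98 to 6.17) and 6.51% after combination therapy (60 of 922, 5.00 to 8.30). Relative to untreated tumours the share was 0.46 times as large after the STING agonist (interval 0.28 to 0.75), 0.64 times after the LTβR agonist (0.48 to 0.86) and 0.84 times after combination therapy (0.61 to 1.15). Combination therapy thus lay within counting error of the untreated library. Its share was 1.83 times that after the STING agonist alone (1.09 to 3.06) and 1.30 times that after the LTβR agonist alone (0.94 to 1.80). Without thinning the T cell shares were 15.3%, 11.3%, 9.26% and 6.70%, and thinning left out 43.3% of the T cells of combination therapy against 13.2% to 16.9% in the others. At 2500 UMIs the log2 ratio of combination therapy to untreated was 0.52 in place of −0.26.

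CD8 T cells, those with a Cd8a or Cd8b1 UMI and no Cd4 UMI, held most of the cycling T cells. Of them 13.1% cycled in untreated tumours, 6.12% after the STING agonist, 7.37% after the LTβR agonist and 9.26% after combination therapy. Against untreated CD8 T cells the share was 0.47 times as large after the STING agonist (0.26 to 0.85), 0.56 times after the LTβR agonist (0.39 to 0.81) and 0.71 times after combination therapy (0.49 to 1.02). Without thinning the shares were 29.0%, 21.0%, 16.7% and 12.1%, which put combination therapy lowest at 0.42 times untreated (0.33 to 0.53). CD4 T cells with a Foxp3 UMI, the mark of regulatory T cells, cycled at 3.53% (3 of 85), 6.90% (2 of 29), 11.8% (6 of 51) and 6.67% (1 of 15). CD4 T cells without one cycled at 1.27% (2 of 158), 1.28% (1 of 78), 2.16% (6 of 278) and 4.72% (5 of 106). All intervals of the CD4 ratios to untreated included 1.

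The makeup of the T cell class also differed between libraries. Cluster 16, led by the cytotoxic genes Nkg7, Prf1 and Gzmb with Cd8a, made up 27.8% of untreated T cells and 14.9%, 14.9% and 22.4% after the STING agonist, the LTβR agonist and combination therapy. Within it 16.8%, 10.5%, 14.3% and 15.6% of the cells cycled. Cluster 10, led by Tcf7 and Lef1 of naive and memory T cells, made up 16.7%, 31.0%, 41.9% and 43.6% of T cells and cycled at 1.46%, 1.26%, 2.68% and 1.30%. With equal weights for the T cell clusters, the share of cycling T cells was 6.10%, 4.03%, 6.19% and 6.10%, so the lower value after the LTβR agonist was no longer present (log2 ratio 0.02 in place of −0.64) and that after the STING agonist was. The part of this makeup in the shares was not tested beyond that weighting.

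In T cells the mitosis members were lower after each treatment and the replication members were nearly level. With cell cycle genes kept for clustering, the log2 ratios of the 40 members were −0.058, 0.048 and −0.17 in place of −0.29, −0.18 and −0.32, so the lower level after the LTβR agonist was lost. The 40 members summed to 1835 CPM in untreated T cells and to 1503, 1625 and 1473 after the STING agonist, the LTβR agonist and combination therapy. The mitosis members summed to 957, 712, 789 and 706 CPM, log2 ratios of −0.43, −0.28 and −0.44 to untreated. The replication members summed to 682, 653, 662 and 623 CPM, with ratios of −0.06 (−0.15 to 0.02), −0.04 (−0.11 to 0.02) and −0.13 (−0.21 to −0.05). A count of members past 1.5-fold was made among those with at least 200 UMIs in the 2 libraries compared, since rarer members have wide intervals. After the STING agonist 5 of 24 such members were lower and 0 higher, where 3.93% of all genes tested were lower and 2.83% higher, and the median was −0.30 against −0.06 over all genes. After the LTβR agonist 1 of 29 was lower (background 3.16% lower and 3.05% higher) with a median of −0.11 against −0.00. After combination therapy 3 of 24 were lower (background 2.84% lower and 2.75% higher) with a median of −0.34 against −0.05. The lower members numbered 14 after combination therapy and 4 after the LTβR agonist with cells over 5000 genes kept, 9 after combination therapy without doublet removal, and 2 after the STING agonist under median-of-ratios scaling.

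Single members in T cells differed in the library where they were lowest. Mki67, the proliferation antigen, was at 185 CPM in untreated T cells, 140 after the STING agonist, 140 after the LTβR agonist and 127 after combination therapy. Top2a, which untangles replicated DNA, was at 187, 142, 168 and 145 CPM. Both were highest in the untreated library, and neither passed 1.5-fold. Ube2c, the E2 enzyme that marks cyclins for destruction, was at 39.8, 14.5, 37.3 and 31.4 CPM, a log2 ratio of −1.44 (−2.01 to −0.94) for the STING agonist and the largest of any member tested there. The kinetochore protein Cenpf was at 37.2, 20.3, 36.2 and 29.3 CPM and fell by 0.86 on the log2 scale after the STING agonist, and the formin Diaph3 was at 82.2, 53.4, 67.5 and 60.7 CPM and fell by 0.62. In these 3 genes the library of the STING agonist stood below the other 3. The centromeric histone Cenpa was lowest after the LTβR agonist, at 117, 106, 76.8 and 95.5 CPM.

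After combination therapy the T cell members past 1.5-fold were others. Birc5, the survivin subunit of the chromosomal passenger complex, was at 31.6, 26.5, 25.2 and 16 CPM, a log2 ratio of −0.97 for combination therapy. Tk1, the thymidine kinase, was at 32.1, 25.7, 24.1 and 19.4 CPM (−0.72), and Tyms, the thymidylate synthase, at 28.0, 25.7, 22.1 and 18.2 CPM (−0.61). All 3 were lowest in that library. Rrm2, the small subunit of ribonucleotide reductase, was at 22.5, 24, 24.3 and 16 CPM, also lowest there. Pcna was at 152, 144, 149 and 131 CPM, Mcm5 at 37.8, 28.2, 34.9 and 39.1, and Stmn1 at 114, 84.5, 106 and 83.5. Cdt1, the licensing factor, ran the other way at 23.4, 31.9, 33.6 and 32.4 CPM, without passing 1.5-fold, and its annotation overlaps that of Gm20388. Set against the LTβR agonist alone, combination therapy was lower by log2 ratios of −0.65 in Birc5 and −0.59 in Rrm2, and against the STING agonist alone the widest was −0.37 in Rrm1, among the 11 members with at least 200 UMIs in those 2 libraries. Ccnb1, the mitotic cyclin, rested on 53, 10, 40 and 18 UMIs, 9.62, 4.14, 6.35 and 5.55 CPM.

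Other cell cycle genes outside the 40 were read in the same T cells from a list of 36, against the same shares of all genes past 1.5-fold as above. After the STING agonist 2 of 24 tested were higher, the cell cycle inhibitor Cdkn1a (0.77) and the antiproliferative gene Btg2 (0.87), and 4 were lower, Rbl2 (−0.99), Cdk6 (−0.96), E2f3 (−0.77) and Dut (−0.65). After the LTβR agonist 2 of 26 were lower, Rbl2 (−0.95) and Cdk6 (−0.66). After combination therapy Ccnd3 was higher (0.63) and Rbl2 lower (−0.77) among 24, about the background share. Rbl2, the pocket protein of resting cells, was thus lower in all 3. Markers of other cells also moved in the T cell class. The 8 macrophage markers, all detected in each library, summed to 258, 192, 186 and 484 CPM. The 8 neutrophil markers, likewise all detected, summed to 12.5, 581, 24.1 and 80.1 CPM. The part of such RNA in the T cell ratios was not tested.

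Macrophages and monocytes held the largest number of cycling cells and showed the lower level after the STING agonist in nearly every member. The share of cycling cells was 4.81% in untreated tumours (156 of 3242, 4.10 to 5.61), 2.07% after the STING agonist (108 of 5218, 1.70 to 2.49), 2.84% after the LTβR agonist (182 of 6407, 2.45 to 3.28) and 3.24% after combination therapy (200 of 6171, 2.81 to 3.71). Relative to untreated, the ratios were 0.43 (0.34 to 0.55), 0.59 (0.48 to 0.73) and 0.67 (0.55 to 0.83), and all 3 intervals lay below 1. Combination therapy exceeded the STING agonist alone by 1.57 times (1.24 to 1.97) and lay within counting error of the LTβR agonist alone (1.14, 0.94 to 1.39). Without thinning the shares were 18.2%, 10.0%, 8.44% and 5.67%, which turned the order of the 3 treatments. The cycling cells were macrophages, at 7.33%, 4.27%, 5.73% and 5.42%, whereas monocytes cycled at 0.423%, 0.0731%, 0.151% and 0.157%.

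The makeup of the macrophage class changed with treatment too. Cluster 1, led by C1qa and Apoe, made up 39.0%, 20.8%, 18.2% and 25.3% of macrophages and monocytes and cycled at 8.15%, 6.30%, 9.23% and 7.35%. Cluster 8 made up 5.57%, 2.76%, 6.14% and 15.3% and cycled at 12.8%, 6.06%, 7.43% and 3.76%. These were 115, 78, 123 and 147 cycling cells in cluster 1 and 15, 4, 20 and 24 in cluster 8. In cluster 1 the intervals of the STING agonist (5.01 to 7.79) and the LTβR agonist (7.73 to 10.9) barely overlapped. In cluster 8 those of untreated tumours (7.36 to 20.3) and combination therapy (2.42 to 5.54) did not overlap. With equal cluster weights the share over the class was 3.85%, 2.49%, 3.56% and 2.96%, log2 ratios of −0.63 for the STING agonist and −0.11 for the LTβR agonist in place of −1.22 and −0.76. The part of composition in these differences was not tested beyond this weighting.

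**Figure D3:**
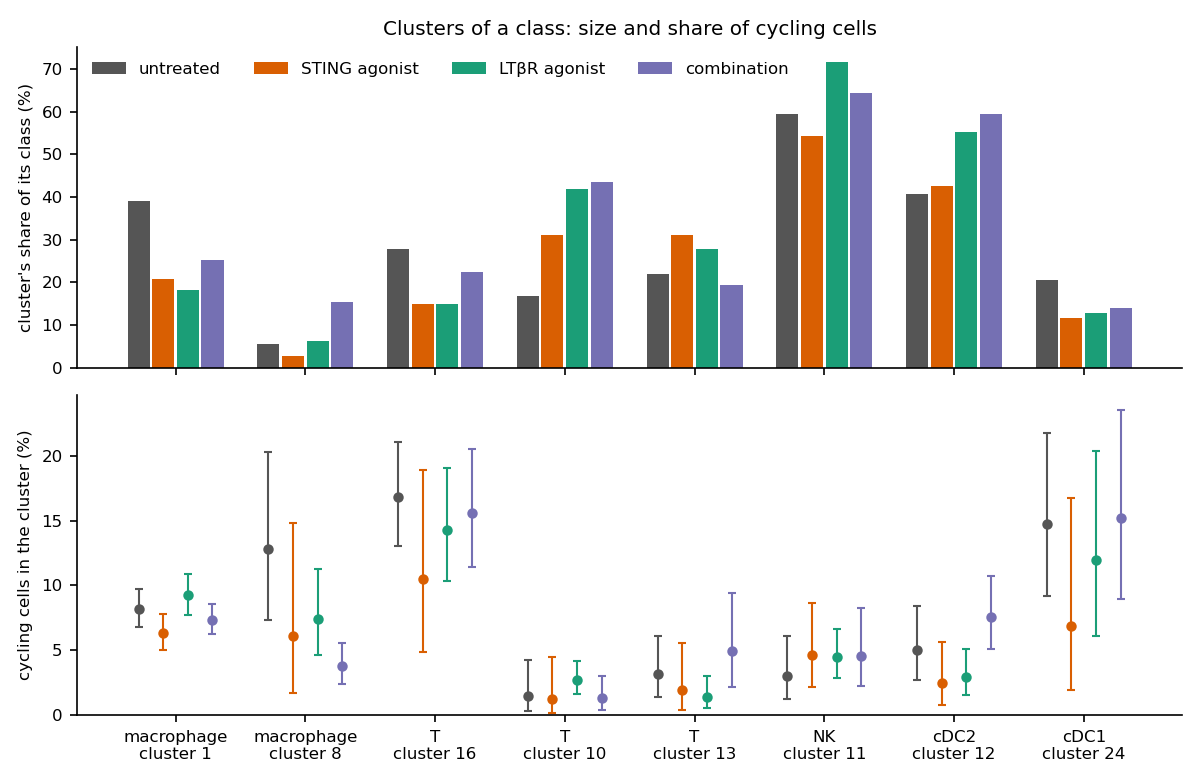
For 8 clusters of macrophages, T cells, NK cells, cDC2 and cDC1, bars give each cluster's percent of its cell type per library and points the percent of its cells that were cycling, with 95% exact binomial intervals. Macrophage cluster 1 and T cell cluster 16 take a smaller part of their class after treatment, while T cell cluster 10, which cycles at 1.26% to 2.68%, takes a larger one.

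By level, the STING agonist library was lower across the roles. Of the 39 members with at least 200 UMIs, Rad54l being the exception, 33 were lower past 1.5-fold after the STING agonist and 1 was higher, where 10.2% of all genes tested were lower and 5.69% higher. The median over these members was −0.94 against −0.20 over all genes. Scaling by the median of the gene ratios, which shifts this comparison by −0.22, left 23 lower. The 5 members between the limits were Tyms, Mcm4, Pcna, Cdt1 and Cenpa. After the LTβR agonist 6 were lower and 1 higher (background 2.18% and 3.85%), with a median of −0.34 against −0.03. After combination therapy 5 were lower and 1 higher (background 2.99% and 3.96%), with a median of −0.27 against −0.08. When cells over 5000 genes were kept, the lower members numbered 27 after the LTβR agonist and 32 after combination therapy.

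The replication members come first in the cycle. Mcm5, a subunit of the helicase, was at 17.1 CPM in untreated macrophages and monocytes, 8.27 after the STING agonist, 11.6 after the LTβR agonist and 10.6 after combination therapy, log2 ratios of −1.04, −0.56 and −0.69. Rrm2, which supplies deoxynucleotides, was at 6.85, 3.09, 4.17 and 4.21 CPM (−1.15, −0.72 and −0.70). Tk1 was at 17.7, 8.32, 11.3 and 13.7 CPM (−1.09, −0.66 and −0.37). In all 3 the untreated library was highest and the STING agonist lowest. Mcm6, another subunit of the helicase, was at 28.9, 15.2, 18.7 and 18.5 CPM and past 1.5-fold lower after all 3 treatments (−0.93, −0.63 and −0.64). Mcm2 fell by 0.69 after the LTβR agonist and by 0.96 after combination therapy, and Cdc6, which loads the helicase, fell by 0.83 after the LTβR agonist. Pcna, which also serves DNA repair outside S phase, was nearly level at 102, 90.7, 96.4 and 84.9 CPM, and Tyms was at 9.29, 6.20, 7.84 and 8.08. Mcm4 was higher after combination therapy by 0.26, within 1.5-fold.

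The mitosis members parted between the treatments. Top2a was at 57.6, 25.2, 46.1 and 53.0 CPM (−1.19, −0.32 and −0.12), and Mki67 at 68.4, 44.3, 52.9 and 62.4 CPM (−0.63, −0.37 and −0.13). Both were low after the STING agonist alone and close to untreated after combination therapy. Birc5 was at 19.1, 8.84, 14.3 and 13.8 CPM and fell by 1.11 after the STING agonist. Ccnb1 was at 4.61, 1.91, 3.82 and 3.59 CPM and fell by 1.27. The largest falls after the STING agonist were those of Nusap1, a spindle protein, by 1.36, of Plk1, the polo kinase, by 1.31, and of Ccna2, the S and G2 cyclin, by 1.30. Stmn1 was at 57.2, 25.8, 36.8 and 38.0 CPM (−1.15, −0.64 and −0.59). Bub1b, of the spindle checkpoint, was higher after combination therapy by 0.26, within 1.5-fold. Summed over the class, the members stood at 853, 607, 697 and 744 CPM. Set against the STING agonist alone, combination therapy was higher by 1.26 in the kinetochore protein Cenpf, by 1.14 in Nusap1 and by 1.07 in Top2a. Set against the LTβR agonist alone, the widest differences were 0.55 for Cenpf and −0.43 for Cdt1, both within 1.5-fold.

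**Figure D4:**
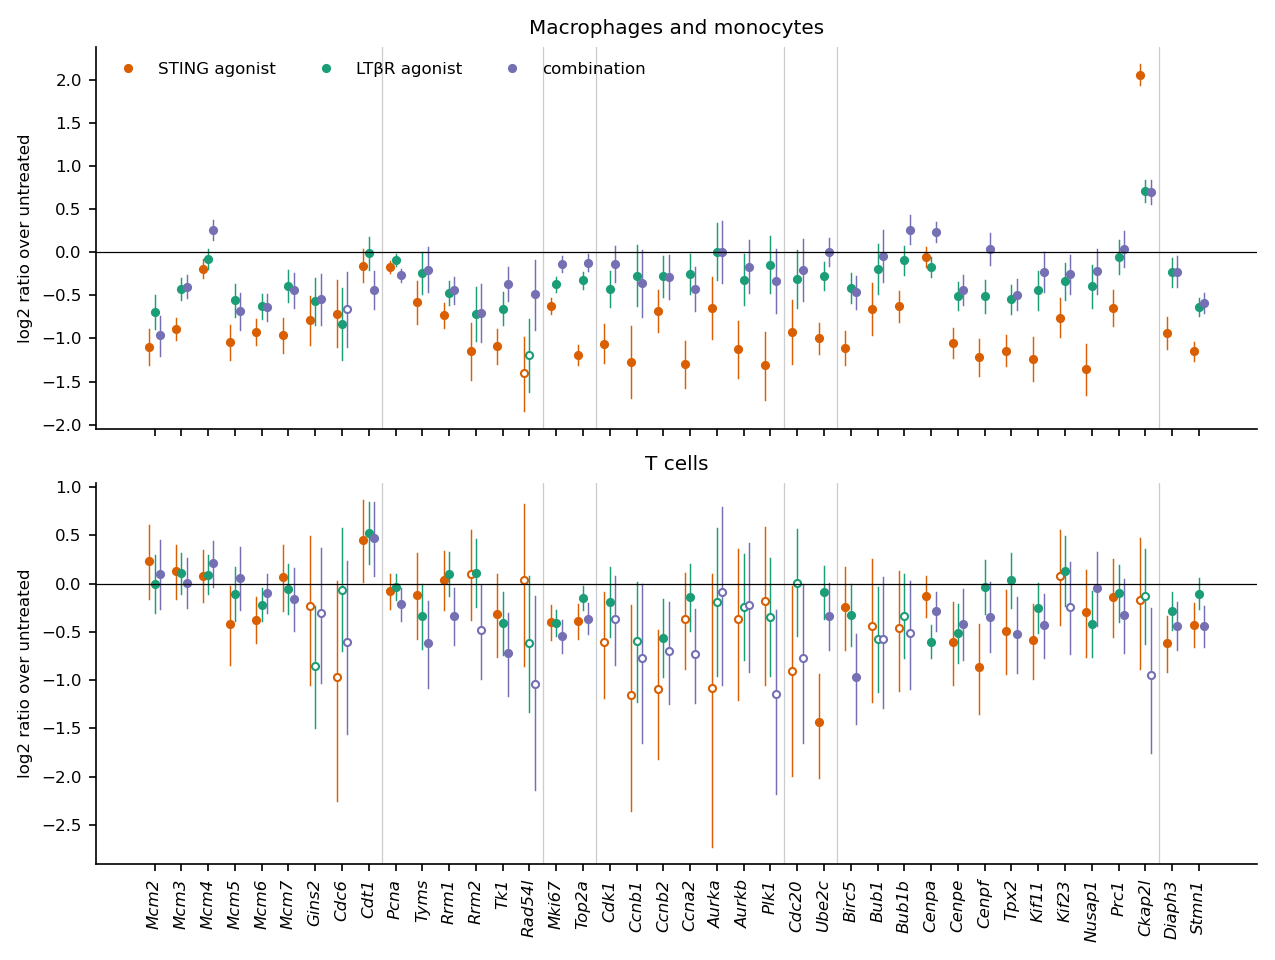
Log2 ratio to untreated of each of the 40 members, ordered by role, in macrophages with monocytes (top) and T cells (bottom) for the STING agonist, the LTβR agonist and combination therapy, with 95% counting intervals and open symbols for members under 200 UMIs. In macrophages with monocytes the STING agonist points lie below the others for most members, and Ckap2l stands at 2.06.

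Ckap2l, a spindle protein, went against the other members in macrophages and monocytes. In macrophages and monocytes it was at 24.8 CPM in untreated tumours (674 UMIs), 104 after the STING agonist (4567), 40.7 after the LTβR agonist (1610) and 40.4 after combination therapy (1171), log2 ratios of 2.06 (1.95 to 2.18), 0.71 and 0.70. It was the 1 higher member in each of the counts above. In monocytes, which hardly cycled after thinning, it was at 18.9, 124, 41.0 and 46.6 CPM. In neutrophils it was at 26.9, 33.9, 41.9 and 33.5 CPM, where the intervals of all 3 ratios included 0. In DC it went with the other members, at 14.2, 8.30, 10.8 and 17.9 CPM (−0.76, −0.40 and 0.34), while Il1a in DC was higher by 1.45 after the STING agonist. In T cells it was at 12.7, 11.2, 11.6 and 6.47 CPM, lowest after combination therapy. Only 10.4% of its detections in macrophages and monocytes were in cells with at least 5 other members, against 54.3% for Top2a in the same cells and 77.4% for Ckap2l in T cells.

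Ckap2l lies beside a pair of cytokine genes. In the GENCODE M21 annotation of GRCm38 the gene spans chr2:129268210-129297212 on the minus strand, and it starts 2397 bases beyond the 3′ end of Il1a (chr2:129299610-129309972, same strand), with Il1b at chr2:129364570-129371139. Il1a and Il1b are the inflammatory cytokines of activated myeloid cells. Il1a was at 227, 809, 402 and 312 CPM in macrophages and monocytes (1.83, 0.83 and 0.46), and Il1b at 3034, 7452, 5108 and 5085 CPM (1.30, 0.75 and 0.75). In this class both, like Ckap2l, were highest after the STING agonist and lowest in untreated tumours, also in macrophages and monocytes taken apart. In neutrophils Il1a was at 947, 1246, 858 and 726 CPM, highest after the STING agonist, where Ckap2l was not. In T cells Il1a rose by 2.25 after the STING agonist and Ckap2l stood at −0.17 (−0.88 to 0.48). Whether reads of Il1a were counted for Ckap2l was not tested. Without Ckap2l the mitosis members in macrophages and monocytes stood at −0.83, −0.32 and −0.12, compared with −0.37, −0.23 and −0.05 with it, and in monocytes the value for the STING agonist turned from 0.65 to −0.33. In macrophages alone they stood without it at 512, 342, 498 and 504 CPM (−0.58, −0.04 and −0.02), so the difference after the LTβR agonist was nearly absent there. Another 7 members, Ccnb2, Ccna2, Ube2c, Prc1, Mcm6, Rrm1 and Cdc6, also start within 5000 bases of the end of a coding gene on their strand.

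**Figure D5:**
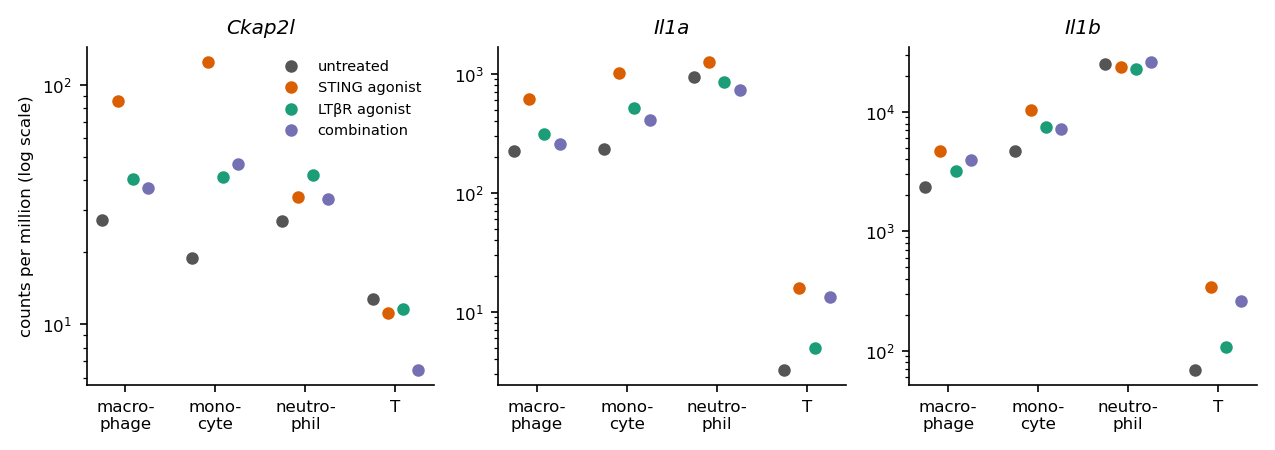
Levels of Ckap2l, Il1a and Il1b in CPM (log axis) in macrophages, monocytes, neutrophils and T cells of the 4 libraries. In monocytes Ckap2l goes from 18.9 CPM in untreated tumours to 124 after the STING agonist, while in T cells it stays between 6.47 and 12.7.

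Other cell cycle genes in macrophages and monocytes followed the members. After the STING agonist 12 of 32 tested were lower, where 10.2% of all genes were, led by Uhrf1 (−1.34), which keeps DNA methylation through replication, the helicase Hells (−1.21), the checkpoint mediator Clspn (−1.21), E2f8 (−1.18) and Ccnd1 (−1.01). The 1 gene that was higher was Cdkn1a, the p21 inhibitor, at 643, 1080, 962 and 1101 CPM, and it was also higher after combination therapy (0.78). After the LTβR agonist 6 of 33 were lower (background 2.18%) and after combination therapy 4 of 33 (background 2.99%). Neutrophil markers in this class summed to 189, 780, 309 and 310 CPM, with all 8 detected in each library, and their part in the ratios was not tested.

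Of DC, 5.75% cycled in untreated tumours (36 of 626), 1.94% after the STING agonist (9 of 464), 3.57% after the LTβR agonist (26 of 728) and 7.36% after combination therapy (47 of 639). The share was 0.34 times that of untreated tumours after the STING agonist (0.16 to 0.69), 0.62 times after the LTβR agonist (0.38 to 1.02) and 1.28 times after combination therapy (0.84 to 1.95), so the untreated and combination libraries lay within counting error of each other. Combination therapy was 3.79 times the STING agonist alone (1.88 to 7.66) and 2.06 times the LTβR agonist alone (1.29 to 3.29). Without thinning the shares were 18.3%, 11%, 10.3% and 10.9%, which put untreated tumours first.

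Among DC types the cross-presenting cDC1 cycled most, at 14.7%, 6.90%, 12% and 15.2%. Without thinning they cycled at 40.7%, 32.2%, 26.0% and 27.8%. Combination therapy was then 0.68 times untreated (0.48 to 0.98) in place of 1.04 times. The cDC2 cycled at 5.00%, 2.45%, 2.95% and 7.55%, where combination therapy was 3.08 times the STING agonist alone (1.21 to 7.85), 2.56 times the LTβR agonist alone (1.32 to 4.96) and 1.51 times untreated (0.80 to 2.86). Without thinning these cDC2 ratios were 0.92 (0.59 to 1.44), 0.95 (0.66 to 1.38) and 0.56 (0.39 to 0.80). Mature DC, the migratory state, cycled at 1.16% (2 of 172), 0% (0 of 140), 0.562% (1 of 178) and 2.04% (3 of 147). The count of 0 allows a share of up to 2.14%. Without thinning the mature DC shares were 5.95%, 6.47%, 2.65% and 2.60%, which put the STING agonist highest. The cDC2 cluster made up 40.6%, 42.6%, 55.2% and 59.5% of DC, and with equal cluster weights the DC shares were 5.30%, 2.34%, 3.84% and 6.77%.

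By level the mitosis members in DC were higher after combination therapy and lower after each agonist alone. They summed to 523, 324, 418 and 796 CPM, log2 ratios of −0.69, −0.32 and 0.61 (0.53 to 0.68 for the last). In these libraries 36, 9, 26 and 47 cycling DC carried 1812 of 2797, 536 of 1286, 1438 of 2178 and 2164 of 2755 mitosis UMIs. That interval counts UMIs and not cells, so it is too narrow. The replication members summed to 417, 272, 310 and 441 CPM (−0.62, −0.43 and 0.08, the last from −0.01 to 0.18). After the STING agonist 7 of 11 members tested were lower (background 3.52% lower and 4.07% higher) with a median of −0.67 against −0.06, and after the LTβR agonist 3 of 14 (background 1.79% lower and 2.96% higher) with −0.31 against −0.01. After combination therapy 5 of 17 were higher and 0 lower (background 3.8% higher and 2.86% lower) with 0.39 against −0.03. Those 5 were Top2a, Ube2c, the spindle motor Kif11, the kinetochore motor Cenpe and Diaph3. With the cells over 5000 genes kept, 0 were higher, and with cell cycle genes kept for clustering the summed log2 ratio for combination therapy was −0.06 in place of 0.41.

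Top2a in DC was at 86.1, 40.8, 70.3 and 138 CPM (−1.08, −0.29 and 0.68). Ube2c was at 22.6, 11.6, 20.4 and 41.6 CPM (0.88 after combination therapy), and Kif11 at 20.8, 11.3, 15.2 and 36.1 CPM (0.80). In each of them combination therapy was the highest of the 4 libraries and the STING agonist the lowest. Diaph3 spanned the widest range, at 43.6, 15.3, 20.2 and 65.6 CPM, and fell by 1.5 after the STING agonist and by 1.11 after the LTβR agonist. Set against the STING agonist alone, combination therapy was higher by 2.09 in Diaph3, by 1.75 in Top2a and by 1.36 in Stmn1, and against the LTβR agonist alone by 1.70 in Diaph3, 1.25 in Kif11 and 1.03 in Ube2c. Mki67 was at 100, 76.7, 80.3 and 147 CPM. Cenpa went against the rest after the STING agonist, at 54.8, 72.5, 58.2 and 72.0 CPM. Outside the members, Cdkn1a was higher after all 3 treatments at 441, 925, 806 and 834 CPM, Uhrf1 fell by 1.56 after the STING agonist and by 1.06 after the LTβR agonist, and Tuba1b was higher after combination therapy by 0.62. The 8 macrophage markers, all detected, summed to 840, 477, 707 and 1423 CPM in the DC class, in the same order as the mitosis members, and their part in the result was not tested.

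NK cells held few cycling cells and a lower level of mitosis members in the untreated library than in the others. The share was 2.57% (9 of 350, 1.18 to 4.83) in untreated tumours, 2.81% (9 of 320, 1.29 to 5.27) after the STING agonist, 3.91% (26 of 665, 2.57 to 5.68) after the LTβR agonist and 4.10% (11 of 268, 2.07 to 7.23) after combination therapy. The 3 ratios to untreated, 1.09, 1.52 and 1.60, all had intervals that included 1. Without thinning the shares were 5.28%, 7.34%, 6.50% and 3.38%, which put combination therapy below untreated, and thinning left out 54.7% of the NK cells of combination therapy against 13.04% to 19.98% in the others. The mitosis members summed to 173, 446, 519 and 539 CPM, log2 ratios of 1.37 (1.16 to 1.58), 1.59 (1.40 to 1.79) and 1.64 (1.43 to 1.86). A few cycling cells carried most of these molecules after treatment, 474 of 694 mitosis UMIs from 9 cells, 1060 of 1411 from 26 cells and 423 of 567 from 11 cells, against 90 of 253 from 9 cells in untreated tumours. The intervals count UMIs and not cells, so they are too narrow for so few cells. The replication members summed to 497, 485, 512 and 454 CPM, with ratios whose intervals all spanned 0. Mki67 in NK cells was at 32.1, 96.3, 103 and 123 CPM, from 47, 150, 280 and 129 UMIs. Top2a was at 37.5, 73.8, 102 and 101 CPM, and Stmn1 at 28.6, 76.4, 59.2 and 74.2. In all 3 the untreated library stood below the other 3.

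The NK difference depended on how the cells were assigned. With cell cycle genes kept for clustering, the summed log2 ratios of the 40 members were −0.27, −0.23 and −0.12 in place of 0.47, 0.59 and 0.57, and those of the shares −1.64, −0.58 and −0.87. Of members with at least 200 UMIs, 4 of 8 were higher after the LTβR agonist, Mki67, Top2a, Stmn1 and Cenpa, and 0 were lower (background 1.48% higher and 0.988% lower), with a median of 0.38 against −0.01. In the other 2 comparisons 2 members reached 200 UMIs, and 0 of them passed 1.5-fold. Replication members supplied 74.2% of the UMIs of replication and mitosis members together in untreated NK cells and 52.1%, 49.7% and 45.7% after treatment. Of the other cell cycle genes, Hmgb2 was higher after the STING agonist (0.62), Tubb5 (0.67) and Tuba1b (1.02) after the LTβR agonist and Btg2 (0.77) after combination therapy. T cell markers in the NK class summed to 1262, 1116, 1373 and 1297 CPM, all 8 detected in each library, and their part was not tested.

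Plasma cells had a higher share of cycling cells than T cells, NK cells, DC or macrophages with monocytes in all libraries but that of combination therapy, on few cells. The shares were 11.9% (5 of 42), 14% (6 of 43), 7.17% (18 of 251) and 3.54% (15 of 424), and the last was 0.30 times untreated (0.11 to 0.78) and 0.49 times the LTβR agonist alone (0.25 to 0.96). Mki67 was at 440, 273, 291 and 248 CPM (−0.69, −0.60 and −0.83), and Top2a at 212, 147, 124 and 78.6 CPM, with −0.77 after the LTβR agonist and −1.43 after combination therapy. These levels rest on few cells. In untreated tumours 5 cycling cells carried 417 of 488 mitosis UMIs, and after treatment 6, 18 and 15 carried 302 of 401, 1255 of 1596 and 937 of 1439. The 40 members summed to 1748, 1301, 1324 and 1063 CPM. Plasma cells made up 0.638% of leukocytes in untreated tumours and 3.71% after combination therapy, and a smaller share of them was cycling in the latter.

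Cycling cells were set beside the other cells of their class wherever a library held at least 20 of them, which left out T cells and DC of the STING agonist, NK cells of all but the LTβR agonist and plasma cells of all 4 libraries. Of 18 T cell state genes, 5 had intervals below 0 in cycling T cells in all 3 libraries compared and 0 had intervals above 0. Cycling T cells had less Tcf7 than other T cells, by log2 ratios of −2.60 in untreated tumours, −2.07 after the LTβR agonist and −2.42 after combination therapy. Il7r, the receptor for the survival cytokine IL-7, was at −2.03, −2.02 and −2.02, and Lef1 at −2.30, −1.92 and −1.78. These 3 genes were low in all 3 libraries, whereas Ccr7, of the same list, was at −0.14 (−0.62 to 0.28) in untreated tumours. The inhibitory receptor Pdcd1 was at 0.36, 0.17 and 0.56 and Prf1, perforin, at 0.55, 0.65 and 0.17, whereas granzyme B (Gzmb) was higher in cycling cells in untreated tumours (1.11) and after the LTβR agonist (0.76) and lower after combination therapy (−1.0). The genes outside the list that stood highest in cycling T cells were H1f5, Smc2, Tuba1b, H4c4 and H1f4, histones, a condensin and a tubulin, with H1f5 at 5.93, 6.57 and 5.54. In NK cells after the LTβR agonist they were H1f5, Tuba1b, H4c4, Tubb5 and Hmgb2.

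Of 18 macrophage state genes, 3 had intervals above 0 and 12 below 0 in the cycling macrophages and monocytes of all 4 libraries. C1qa was higher in them than in the other macrophages and monocytes in all 4 libraries, by 0.50, 1.16, 0.96 and 0.70, and the fractalkine receptor Cx3cr1 by 0.89, 1.49, 1.17 and 0.66. The monocyte genes Ly6c2 (−2.99, −5.50, −2.66 and −3.06, the second from 3 UMIs with an interval of −8.00 to −4.18) and Plac8 (−3.18, −3.85, −2.96 and −3.18) were lower in all 4. The non-member genes highest in cycling cells were H2ac4, H2ac8, Knl1, Kif15 and Pclaf, histones and genes of the kinetochore, spindle and replication clamp, with H2ac4 at 5.91, 6.12, 6.78 and 6.16. Of 12 DC state genes, 5 had intervals below 0 in the cycling DC of the 3 libraries compared and 0 had intervals above 0. Cycling DC had less Ccr7, the lymph node homing receptor, by −3.63 in untreated tumours, −4.75 after the LTβR agonist and −2.14 after combination therapy, and Xcr1 of cDC1 stood at 1.65, 0.67 and 0.01, the last with an interval of −0.54 to 0.48. Highest in them were Hmgb2, H4c4, Smc4, H1f4 and Pola1. Before thinning, cycling cells were deeper than the others in all groups compared but DC of the LTβR agonist (medians of 5212 against 6580 UMIs), with medians of 7087 against 3684 UMIs in untreated T cells and 10311 against 7371 in untreated macrophages and monocytes.

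The share of replication members was taken of the UMIs of replication and mitosis members together, without Diaph3 and Stmn1. Replication members made up 41.6%, 47.9%, 45.6% and 46.9% of these UMIs in T cells and 44.3%, 45.6%, 42.5% and 35.6% in DC. In macrophages and monocytes they made up 45.4%, 42.4%, 44.0% and 40.6%, and 46.9%, 51.8%, 46.9% and 43.2% without Ckap2l. In cycling cells alone the share in T cells was 30.9%, 33.7%, 31.7% and 33.5%. The lowest value in DC, after combination therapy, belonged to the library in which the mitosis members of DC were highest.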

How the data were processed

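Live CD45+ cells of dissociated KPC tumours were sequenced with the 10x 5′ chemistry, 1 library per treatment from 10 pooled tumours. The deposited values are whole-number UMI counts per gene and cell, made by the authors with Cell Ranger (7.1.0 per the labels, 8.0.1 per the file headers) against mm10 per the labels, and the gene table holds 33696 IDs, of which 31961 occur in GENCODE M21. The matrices hold 55090 cells.

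Cells with 300 to 5000 genes and at most 6% mitochondrial UMIs were kept. Scrublet scores, computed in Scanpy 1.11.5, removed the highest 0.4% of cells per 1000 cells, since the automatic limit marked 1 cell or fewer per library. Clusters (33; 2000 variable genes without cell cycle genes, 30 components, 20 neighbours, Leiden resolution 1) were named by marker genes. The naming limits were set after the data had been seen. Carcinoma-type cells were left out. Each cell was thinned at random to 1500 UMIs outside immunoglobulin genes, and 5 or more members detected made it cycling. Intervals of shares and of ratios of levels are exact, and those of ratios of shares are normal approximations on the log scale. All cover counting error only. Intervals of levels count UMIs and not cells, so they are too narrow where a few cells carry most of the UMIs. Levels are CPM of UMIs summed per class and library. Ratios are log2 of CPM after adding 0.5 UMI, so ratios of rare genes are understated, and 1.5-fold with at least 200 UMIs in the 2 libraries was the limit for counts of genes. With 1 library per group no p-values were computed. The ratios of levels with their intervals, the shares and the thinning were tested on simulated data, and the other steps, clustering among them, were not.

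Genes named were Mki67, Top2a, Birc5, Ccnb1, Pcna, Mcm5, Tyms, Rrm2, Tk1 and Stmn1 in T cells and macrophages with monocytes, the 3 members with the largest rise and fall per class and comparison, the 5 genes highest in cycling cells per class, and lists of cell cycle and cell state genes. The members and lists were chosen with earlier results of these data known. Ckap2l and single clusters were singled out after their values were seen. Promoters came from RefSeq tables. The alternatives were other depths, member minimums, filters, doublet and cluster settings, scalings, folds and UMI minimums, as well as equal cluster weights. An earlier experiment of the study was not analysed here. Some items are not reported here.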

Additional observations from a re-analysis of the deposited data

Results flagged for a closer look

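The mitosis members were higher after treatment in NK cells and lower in T cells of the same libraries. The log2 ratios to untreated were 1.37 in NK cells and −0.43 in T cells after the STING agonist, 1.59 and −0.28 after the LTβR agonist, and 1.64 and −0.44 after combination therapy. After the STING agonist, the LTβR agonist and combination therapy, 9, 26 and 11 cycling NK cells carried 474 of 694, 1060 of 1411 and 423 of 567 mitosis UMIs, against 90 of 253 in untreated tumours. The assignment of cells was varied for the 40 members together, whose main ratios, given above, were smaller in size than those of the mitosis members. With cell cycle genes kept for clustering, the 40 members stood at −0.27, −0.23 and −0.12 in NK cells and at −0.058, 0.048 and −0.17 in T cells. The contrast in the 40 members thus depended on how cells were assigned. The difference between the cell types was not tested, since each treatment is 1 library, and the untreated library serves all of these ratios.

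After combination therapy the mitosis members were at 0.61 in DC and at −0.053 in macrophages and monocytes, relative to untreated. Without Ckap2l these values were 0.61 and −0.12. With cell cycle genes kept for clustering, the summed level of all members in DC was no longer higher after combination therapy, as given above. The difference between these cell types was not tested either.

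Cells removed for having over 5000 genes, which enter comparisons only where a setting without that limit is named, were often cycling. Of those that passed the other filters, 26.0% in untreated tumours, 21.9% after the STING agonist, 26.9% after the LTβR agonist and 28.9% after combination therapy had at least 5 members detected at 1500 UMIs. They numbered 458, 297, 160 and 38 cells.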

How the results depend on the processing

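No paired analysis was possible because there was 1 library per group, and for the same reason no replicate was left out. Values are log2 ratios to untreated, in the order STING agonist, LTβR agonist and combination therapy. Of 231 alternatives run for shares of cycling cells, 206 stayed within the counting interval and 15 changed sign, 1 of them where the interval had excluded 0. Of 162 for the summed level, 95 stayed, 62 moved and 5 changed sign, and of 120 for counts of members 89 stayed within 1.5 times. The cause of a change was not tested. Equal cluster weights and leaving out Ckap2l were chosen after seeing the data.

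For shares, leaving out the thinning gave −1.31, −0.90 and −1.45 in all leukocytes, −0.86, −1.11 and −1.68 in macrophages and monocytes, and for combination therapy −1.19 in T cells, −0.64 in NK cells and −0.75 in DC. Thinning to 1000 UMIs gave −0.93 for combination therapy in macrophages and monocytes, and to 2500 gave 0.52 in T cells. At least 8 members gave 2.13, 2.16 and 2.56 in NK cells. Cell cycle genes kept for clustering gave −1.64, −0.58 and −0.87 in NK cells. Equal cluster weights gave −0.39 and −0.14 for the single agonists in all leukocytes, −0.63 and −0.11 in macrophages and monocytes, and turned T cells after the LTβR agonist to 0.021. No upper limit of genes gave −0.69 for combination therapy in all leukocytes, and −1.07 and −1.01 for the LTβR agonist and combination therapy in macrophages and monocytes.

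For levels, cell cycle genes kept for clustering gave −0.058, 0.048 and −0.17 in T cells, −0.27, −0.23 and −0.12 in NK cells, −0.54, −0.32 and −0.11 in macrophages and monocytes, −0.57 (STING agonist) and −0.064 (combination) in DC and −0.16 (combination) in all leukocytes. No upper limit of genes gave −0.82, −0.43 and −0.50 in all leukocytes, −0.36, −0.31 and −0.51 in T cells, 0.78 and 0.70 in NK cells for the single agonists, −0.67, −0.55 and −0.63 in macrophages and monocytes, −0.48, −0.53 and 0.10 in DC, and −0.20 for the STING agonist in plasma cells. Classes from markers in each cell gave −0.18 and −0.12 in T cells for the single agonists, 0.84 and 1.00 in NK cells for the LTβR agonist and combination therapy, −0.52, −0.34 and −0.14 in macrophages and monocytes, −0.32 in DC for the LTβR agonist, and −0.70 and −0.51 in plasma cells for the STING agonist and combination therapy. Median-of-ratios scaling gave −0.38, −0.21 and −0.080 in all leukocytes and −0.28, −0.25 and −0.11 in macrophages and monocytes. Leaving out Ckap2l gave −0.94, −0.28 and −0.21 in all leukocytes and −0.72, −0.34 and −0.24 in macrophages and monocytes. A mitochondrial limit of 10% gave −0.22 in T cells and 0.23 in NK cells for the STING agonist, −0.39 and −0.29 in macrophages and monocytes and −0.31 and 0.30 in DC for the LTβR agonist and combination therapy. No doublet removal gave −0.20 for combination therapy in all leukocytes, −0.22 and −0.43 in T cells and −0.19 and 0.34 in DC for the LTβR agonist and combination therapy, and −0.36 for the LTβR agonist in macrophages and monocytes. Resolution 2 gave −0.16 for combination therapy in all leukocytes, −0.32 for the LTβR agonist in macrophages and monocytes, and −0.27 and −0.51 in plasma cells for the LTβR agonist and combination therapy. Immunoglobulin genes in the total gave −0.28 and −0.23 in all leukocytes for the same comparisons.

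For counts of lower members, a minimum of 50 UMIs gave 10, 4 and 11 in T cells and 27 and 14 in DC for the single agonists, with 14 higher in DC after combination therapy and 11 higher in NK cells after the LTβR agonist. A fold of 2 gave 1, 0 and 0 lower in T cells, 17, 0 and 0 in macrophages and monocytes, 2 and 1 in DC, and 0 higher in DC after combination therapy. No upper limit of genes gave 4 and 14 in T cells, 27 and 32 in macrophages and monocytes and 8 in DC for the LTβR agonist and, where given, combination therapy, with 0 higher in DC after combination therapy. Median-of-ratios scaling gave 2 in T cells after the STING agonist and 3 in macrophages and monocytes after combination therapy, and no doublet removal 9 in T cells after combination therapy and 10 in macrophages and monocytes after the LTβR agonist. By sign alone, of state genes in cycling cells (5 higher and 8 lower in T cells and 2 higher in DC), at least 8 members left 3 higher in T cells and 1 in DC, and no doublet removal 5 lower in T cells and 1 higher in DC.

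In cycling cells only, replication members were 30.9%, 33.7%, 31.7% and 33.5% of replication and mitosis UMIs in T cells (untreated first), 34.8%, 32.8% and 25.1% in treated NK cells, 28.8%, 29.9%, 24.7% and 23.5% in macrophages and monocytes, 31.8%, 21.8%, 18.3% and 22.2% in DC, and 22.3%, 23.2% and 21.3% in plasma cells without the STING agonist. Over all macrophages and monocytes, cycling or not, they were 46.9%, 51.8%, 46.9% and 43.2% without Ckap2l. The number of cells limited NK cells, where 9 to 26 cycled per library, and plasma cells, where 5 to 18 did.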
